A study of Mus musculus with 21 samples.

Results

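The canonical histone genes were taken as every probe whose gene name in the scanner files begins with Hist1h, Hist2h, Hist3h or Hist4h. That gave 68 probes for 56 genes, out of 56605 probes and 37074 gene names on the array. The genes encode linker histone H1 (6 genes), H2A (18), H2B (14), H3 (9) and H4 (9). By the probe coordinates in the files (mouse build mm9), the 42 Hist1 genes lie on chromosome 13, the 10 Hist2 genes on chromosome 3, the 3 Hist3 genes on chromosome 11 and Hist4h4 on chromosome 6.

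The study converted mouse hepatocytes into chemically induced liver progenitors (CLiPs), cells that divide in culture and can be driven back towards hepatocytes. All RNA came from female C57BL/6 mice, and each of the 7 groups had 3 arrays. The first group was freshly isolated hepatocytes. The next 3 groups were passage 1 (P1) CLiPs: before hepatic induction (day 0), after 8 days without inducers (uninduced), and after 8 days with oncostatin M and dexamethasone (induced). The last 3 groups were the same conditions in late-passage CLiPs, at passage 12 for replicates 1 and 2 and passage 11 for replicate 3. The labels do not name the compounds that the CLiPs were made with. They give passage P1 to fresh replicate 3, whose title says fresh, and that array was kept with the fresh group.

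Canonical histones package newly made DNA. H2A, H2B, H3 and H4 form the core of the nucleosome, and H1 binds the DNA between cores. Most of these genes are transcribed in S phase, when DNA is copied, and their mRNAs end in a conserved stem-loop in place of a poly(A) tail. Adult hepatocytes rarely divide. Some members are known to make polyadenylated mRNA in non-dividing cells as well, and a few are known from the germ line.

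A level below is the log2 processed signal of a probe minus the 75th percentile of its array, so 0 marks a probe as bright as that percentile. Levels of one probe were compared between arrays, never with those of another probe. A gene was taken at its probe with the highest mean over the 21 arrays, and was tested if the 3 arrays of some group in the fit all had that probe well above background. It is said to have risen or fallen where limma gave an adjusted p (Benjamini-Hochberg) below 0.05 with a change of 2-fold or more. Differences are log2 with their standard error (SE), the first-named group minus the second, and n = 3 arrays per group throughout. In bulk RNA, fewer cells making an mRNA and less of it per cell cannot be told apart.

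What a probe reads matters for this family, because its genes are nearly identical in coding sequence. The probes of 6 H2A genes below are shown because they share a run of 29 bases, in capitals. All but that of Hist1h2aa end on a stop codon.
Hist1h2aa: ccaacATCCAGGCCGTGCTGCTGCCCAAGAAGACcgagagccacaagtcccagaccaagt
Hist1h2af: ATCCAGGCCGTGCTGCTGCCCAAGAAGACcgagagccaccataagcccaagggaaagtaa
Hist1h2ah: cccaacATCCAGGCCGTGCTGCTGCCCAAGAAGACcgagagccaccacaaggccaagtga
Hist1h2ak: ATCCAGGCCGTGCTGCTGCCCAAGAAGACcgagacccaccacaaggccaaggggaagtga
Hist2h2aa2: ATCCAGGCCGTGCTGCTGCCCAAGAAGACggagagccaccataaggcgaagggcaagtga
Hist2h2ac: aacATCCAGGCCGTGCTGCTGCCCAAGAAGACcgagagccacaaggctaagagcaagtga
A signal on any of them may hold mRNA of the others, so the H2A members are not independent measurements. Of the 56 genes, 16 were read by a probe that lists several RefSeq accessions and holds no stem-loop match, and the split of signal between such copies is uncertain. Some other genes were read by a probe that lists no RefSeq accession, among them Hist1h1c, Hist1h2ac, Hist2h3c1, Hist2h3c2 and Hist3h2ba. Which mRNA such a probe reads is less certain.

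The 3′ stem-loop was searched for on the probe strand as GGC, any base, CTT, any base, T, any base, AG, any base, GCC, whole or cut off by the probe's end after at least 9 bases. It was found in 10 of the 68 member probes, and in 20 of all 56605 probes (0.0353%). The windows below are shown because they are the end that sets replication-dependent histone mRNAs apart. Capitals mark the stem-loop, which the probe of Hist1h2ab cuts off.
Hist1h2ab: caaaGGCTCTTTTCA
Hist2h2bb: aaaaGGCTCTTTTCAGAGCCactt
Hist1h3g: taaaGGCTCTTCTTAGAGCCaccc
Hist1h4m: taaaGGCCCTTTTCAGGGCCatcc
For 8 genes the probe used held such a match. Labelled cRNA was primed from a poly dT-T7 oligonucleotide, per the labels, and the labels do not say how mRNAs without a poly(A) tail were primed. The part of this in any value was not tested.

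Of the 56 genes, 49 had an entry in the RefSeq promoter table (build GRCm38.p6). In the 250 bases before the start, TATAAA on the gene's strand was found in 20 of 49 (40.8%, against 8.12% of 27025 genes). CCAAT on either strand was found in 41 of 49 (83.7% against 34.5%). ATTTGCAT on either strand, the octamer known from H2B promoters, was found in 12 of 49 (24.5% against 1.61%). The 120 bases before the start are shown for 4 genes that rose at P1 day 0 and fell over 8 days without inducers. On P1 induction they differed: Hist1h1b and Hist1h2ab fell, and Hist2h2bb and Hist1h4d were not called. The gene's own strand is printed with the motifs in capitals, where ATTGG marks a CCAAT on the opposite strand.
Hist1h1b (chr13:21780626-21780745, minus strand): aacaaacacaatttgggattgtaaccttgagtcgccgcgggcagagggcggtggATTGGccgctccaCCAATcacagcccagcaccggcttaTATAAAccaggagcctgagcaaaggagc
Hist1h2ab (chr13:23750968-23751087, plus strand): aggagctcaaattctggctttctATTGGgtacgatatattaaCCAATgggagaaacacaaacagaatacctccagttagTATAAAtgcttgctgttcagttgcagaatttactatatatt
Hist2h2bb (chr3:96269580-96269699, plus strand): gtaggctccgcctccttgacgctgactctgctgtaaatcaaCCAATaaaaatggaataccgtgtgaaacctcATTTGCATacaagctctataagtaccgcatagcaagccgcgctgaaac
Hist1h4d (chr13:23581448-23581567, plus strand): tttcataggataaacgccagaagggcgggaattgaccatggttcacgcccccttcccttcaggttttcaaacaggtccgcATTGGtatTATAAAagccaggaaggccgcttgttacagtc
CCAAT was in all 17 H2A promoters, all 11 of H2B and all 6 of H1, in 5 of 7 of H3 and in 2 of 8 of H4. The octamer was in 7 of 17 H2A and 5 of 11 H2B promoters, and in none of the H1, H3 and H4 promoters. A match is a description of these letters only.

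The members formed a series of levels over the 7 groups. Their median on each array ran from -0.70 to 0.36 in fresh hepatocytes, from 1.11 to 1.23 at P1 day 0, from -0.36 to -0.12 in P1 uninduced cells and from 0.12 to 0.43 in P1 induced cells. In late cells it ran from 1.12 to 1.24 at day 0, from -0.03 to 0.27 uninduced and from -0.02 to 0.77 induced. Both day-0 groups were therefore highest, and their arrays overlapped each other but no other group. The number of members well above background on all 3 arrays was 40 in fresh, 48, 46 and 44 in the P1 groups in the order above, and 52, 50 and 50 in the late groups.

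**Figure D1:**
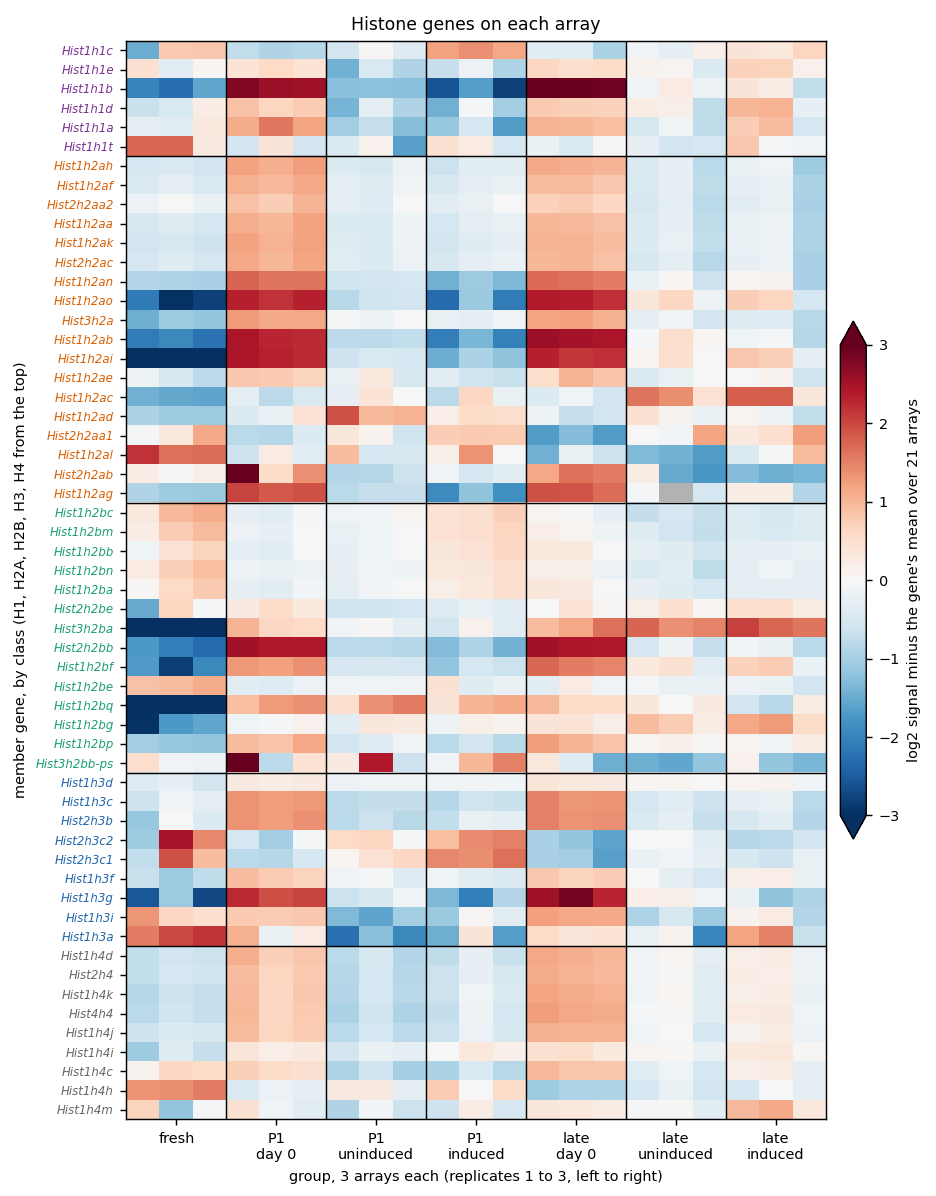
Level of each of the 56 canonical histone genes on each of the 21 arrays, as the log2 level minus that gene's own mean over the arrays (colour scale), with genes ordered by class and arrays by group. The P1 and late day-0 columns are the warmest for most genes, and the single grey cell is a spot flagged by the scanner software.

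The comparison of P1 day-0 CLiPs with fresh hepatocytes asked how conversion altered these genes. Canonical histone mRNAs rose in converted cells: 30 of 51 tested members rose, where 25.4% of all tested genes did, and 6 fell, where 25.2% of all did. The median difference over the 51 was 1.41, against -0.01 over all tested genes. For all 30 that rose, every P1 array lay above every fresh array. H2A rose most often, with 12 of 14 up and none down, followed by H2B (6 up and 2 down of 13), H4 (5 up and 1 down of 9), H3 (4 up and 2 down of 9) and H1 (3 up and 1 down of 6).

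Among the linker histones, Hist1h1b changed most. It stood at -1.98, -2.26 and -1.54 on the fresh arrays and at 2.78, 2.60 and 2.55 at P1 day 0. The groups were far apart, and the difference was 4.57 ± 0.27 (SE), or 23.8-fold, with adjusted p = 4.7e-08. Hist1h1a rose by 1.38 and Hist1h1d by 1.06, while Hist1h1e was 0.41 higher and was not called. Hist1h1d was past the threshold by little: without fresh replicate 1 its difference was 0.88, and it was also lost without fresh replicate 2 or without P1 day-0 replicate 1 or 3.

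Hist1h1c went the other way, with a spread that came from a single fresh array. It stood at 2.01, 4.27 and 4.31 on the fresh arrays, and at 2.76, 2.60 and 2.64 at P1 day 0. Fresh replicate 1 lay below all P1 arrays and the other fresh arrays above them. The difference of -0.87 ± 0.49 was not called, and without that array it was -1.62 and called. The testis linker Hist1h1t fell by 1.49 ± 0.52 (adjusted p = 0.022), with arrays that overlapped. That call was lost without fresh replicate 1 or 2 or without P1 day-0 replicate 1 or 3.

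Among H2A genes, Hist1h2ab stood at 0.52, 0.70 and 0.40 in fresh cells and at 5.07, 4.90 and 4.86 at P1 day 0. It rose 21.2-fold (4.41 ± 0.17, adjusted p = 1.9e-09), with no overlap. Hist1h2ao rose 29.7-fold, from 3.32, 2.48 and 2.64 to 7.76, 7.61 and 7.76. Hist1h2ai was not well above background on any fresh array and was at 0.70, 0.56 and 0.48 at P1 day 0, at least 14.6-fold higher. By its mm9 coordinates this probe overlaps those of Hist1h2ao and Hist1h2an, and the other Hist1h2ai probe lies 93712 bases away. Whether the signal given for Hist1h2ai, in all comparisons, is mRNA of this gene is therefore uncertain. Here and below, "at least" sets the bright group's mean against the dimmest signal that counted as above background on each dim array.

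The shared H2A coding probes printed above were bright in fresh cells and moved less. Hist1h2ah stood at 6.40, 6.5 and 6.35 in fresh cells and at 8.14, 8.02 and 8.18 at P1 day 0, a rise of 3.24-fold (1.70 ± 0.12). Hist1h2aa, known from the germ line but read by a probe that shares 45 bases with that of Hist2h2ac, went from 6.30, 6.41 and 6.28 to 7.87, 7.77 and 7.98. Hist2h2aa2 was 0.998 higher and just missed the 2-fold line. Hist3h2a, which can make polyadenylated mRNA, rose 5.37-fold, from 2.95, 3.33 and 3.25 to 5.68, 5.55 and 5.57.

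H2B split in its direction. Hist2h2bb, read across its stem-loop, rose 22.5-fold, from -2.78, -3.13 and -3.39 to 1.47, 1.35 and 1.36. Hist3h2ba, an H2B gene known from testis, was not well above background on any fresh array and stood at 0.49, 0.10 and 0.08 at P1 day 0, at least 11.4-fold higher. Hist1h2bq, whose probe lists 2 RefSeq accessions, was likewise at least 5.90-fold higher. That probe is annotated to the plus strand in mm9, while RefSeq has the gene on the minus strand in GRCm38.p6, so whether its signal, here and below, is mRNA of this gene is uncertain.

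Other H2B genes were lower after conversion. Hist1h2be fell by 1.28, and Hist1h2bc, a member with known polyadenylated mRNA, went from 6.63, 7.27 and 7.42 to 6.05, 5.99 and 6.26. No arrays overlapped, and the fall of 1.01 ± 0.19 (adjusted p = 0.00046) lay on the 2-fold line: it was -0.51 under quantile normalization, and was lost without any one of 4 arrays, down to -0.85 without fresh replicate 3. Hist1h2bm, Hist1h2ba and Hist1h2bb, at -0.79, -0.69 and -0.52, were not called.

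Of the H3 genes, Hist1h3c rose 3.13-fold, from 1.26, 1.79 and 1.59 to 3.23, 3.15 and 3.19. Hist2h3b rose by 1.84, and Hist1h3g, read across its stem-loop and at background in fresh cells, was at least 6.45-fold higher. Hist1h3d was 0.65 higher and not called. Hist2h3c1 stood at -1.48, 1.18 and 0.21 in fresh cells and at -1.54, -1.59 and -1.23 at P1 day 0. Again fresh replicate 1 lay among the P1 arrays; the fall of 1.42 ± 0.50 (adjusted p = 0.023) was -0.82 and not called without fresh replicate 2, and was also lost without fresh replicate 3 or P1 day-0 replicate 1 or 2. Hist2h3c2 was at -1.48 ± 0.70 and not called, and at -2.48 and called without fresh replicate 1.

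Of the H4 genes, Hist1h4d rose 2.88-fold, from 5.11, 5.26 and 5.21 to 6.94, 6.55 and 6.67. Hist4h4 rose from 1.70, 1.92 and 1.84 to 3.51, 3.13 and 3.31. In both genes the groups did not overlap. Hist1h4i and Hist1h4c, at 0.99 and 0.14, were not called. Hist1h4h, which can make polyadenylated mRNA, fell by 1.72 ± 0.20 (adjusted p = 1.4e-05), from -0.62, -0.55 and -0.43 to -2.39, -2.13 and -2.24.

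**Figure D2:**
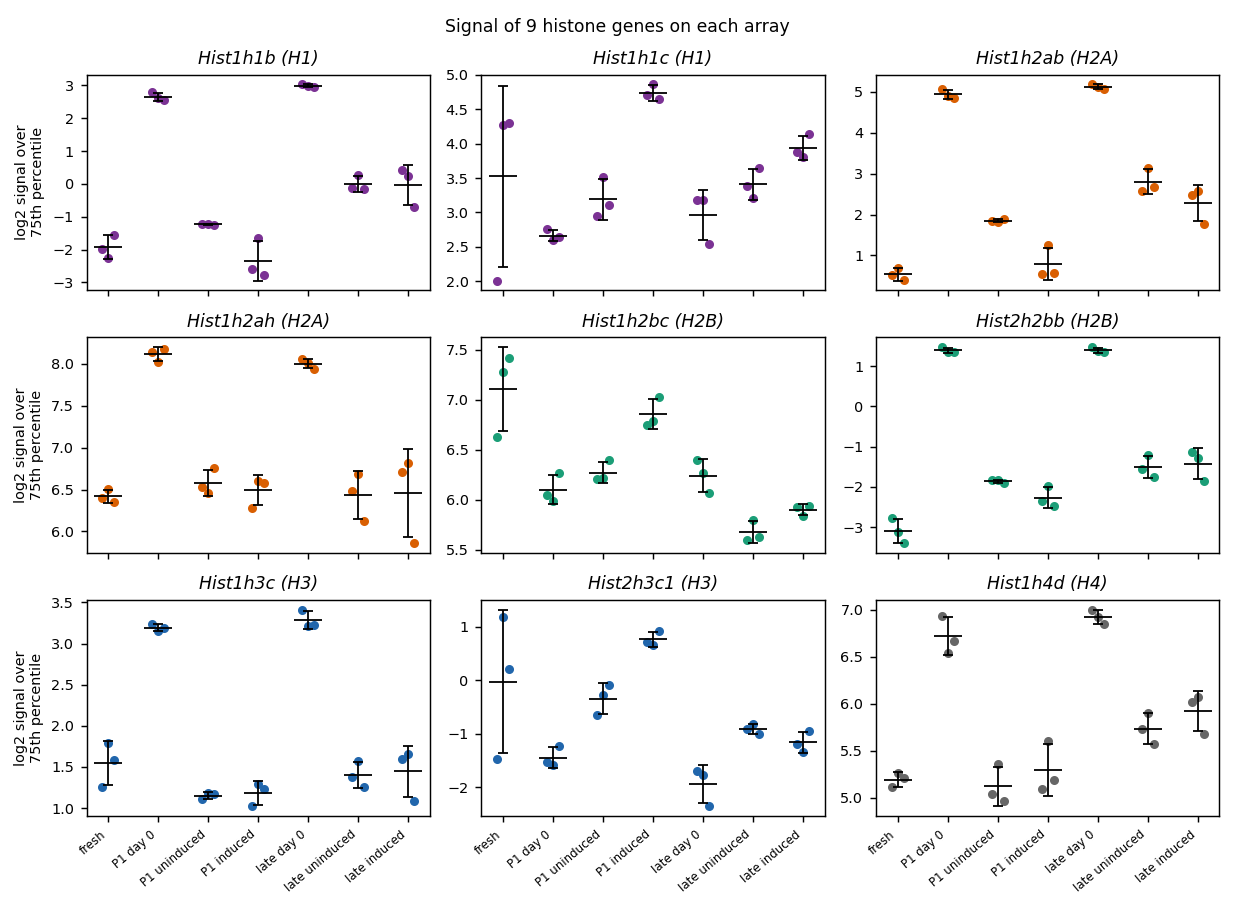
Log2 level of 9 canonical histone genes on every array (points), with group means and SD (bars), 3 arrays per group. Hist1h1b, Hist1h2ab and Hist2h2bb were highest in both day-0 groups, Hist1h1c was highest in P1 induced cells, and Hist1h2bc was lower at P1 day 0 than in fresh hepatocytes.

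Other genes of DNA replication moved beside the histones. Of 25 S-phase genes, 21 rose at P1 day 0 against fresh (median 2.68), among them the deoxyribonucleotide enzyme Rrm2 at 4.75 and the helicase subunit Mcm3 at 4.65, while Tk1, at -0.89, was not called. Of 23 tested genes that regulate, process or chaperone histones, 15 rose and none fell (median 1.49), with the chaperone genes Asf1b at 5.59 and Chaf1a at 4.67 and, not called, Lsm10 at -0.35 and Asf1a at -0.79. Of 12 histone genes outside the members, 5 rose and 1 fell (median 0.41). The centromeric Cenpa was at 2.65 and H2afv at -0.48, and the linker H1fx fell by 1.17. H2afy3, above background on no fresh array, was among those that rose, and its size there is not given.

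Markers of other liver cells moved in the same comparison. All 8 hepatocyte markers fell and all 7 biliary or progenitor markers rose, and 4 of these, Krt19, Krt7, Epcam and Cd24a, were above background on no fresh array. The summed endothelial markers fell from between 3.42 and 4.15 (log2) in fresh cells to between -1.17 and -1.02 at P1 day 0, with 5 of 6 down and Cdh5, Kdr and Lyve1 above background on no CLiP array. Summed macrophage markers went from between 3.11 and 4.85 to between 1.78 and 1.90 (5 of 6 down), and both tested lymphocyte markers fell. Summed stellate or fibroblast markers went from between 1.95 and 3.43 to between 3.77 and 5.15 (5 of 7 up). Fresh and P1 arrays were on different slides, so slide and group cannot be told apart, and the part of any of these in the histone differences was not tested.

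The comparison of P1 cells after 8 days without inducers with P1 day 0 asked how these genes changed over that time. Other culture conditions may also have differed between these groups, and their part was not tested. Canonical histone mRNAs fell: 30 of 51 tested members fell, where 4.86% of all tested genes did, and 1 rose, where 6.28% did. The median difference was -1.41, against -0.0011 over all tested genes. For all 30 that fell, every uninduced array lay below every day-0 array. Those down were 4 of 6 H1, 12 of 14 H2A, 3 of 13 H2B, 5 of 9 H3 and 6 of 9 H4 genes.

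Hist1h1b stood at -1.23, -1.21 and -1.25 after 8 days, 14.7-fold below day 0 (-3.87 ± 0.27, adjusted p = 5.0e-06). Hist1h2ab stood at 1.84, 1.83 and 1.88, having fallen 8.53-fold, and Hist2h2bb at -1.84, -1.83 and -1.91, having fallen 9.54-fold. These 3 genes varied little between the uninduced arrays. The other linker genes Hist1h1a, Hist1h1d and Hist1h1e fell by 2.28, 1.62 and 1.41. Hist1h1c, at 2.94, 3.52 and 3.1, was 0.52 above day 0 and not called.

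Hist1h2ao fell by 2.94, Hist1h2ai by 2.87, Hist1h2ah by 1.54 and Hist2h2aa2 by 1.09. In H3, Hist1h3g was at -2.47, Hist2h3b at -2.09 and Hist1h3c at -2.04, and in H4, Hist4h4 was at -1.62, Hist1h4d at -1.60 and Hist1h4c at -1.42, all 6 called. Hist1h3d, at -0.39, and Hist1h4i, at -0.62, were not called.

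Most H2B members did not pass the test. Hist1h2bc, at 6.21, 6.21 and 6.39, differed from day 0 by 0.17 ± 0.19, and its arrays overlapped those of day 0. Hist1h2bb, Hist1h2ba, Hist1h2bm and Hist1h2be lay between 0.03 and 0.19, Hist1h2bq was at -0.06, and Hist3h2ba and Hist2h2be were at -0.86 and -0.94. Hist1h4h was 0.38 higher and not called. Hist2h3c1 was 1.11 ± 0.50 higher (adjusted p = 0.11) and Hist2h3c2 0.93 ± 0.70, neither called. The single gene that rose was Hist1h2ad, named here after its value was seen: it was above background on no day-0 array and at least 1.76-fold higher.

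**Figure D3:**
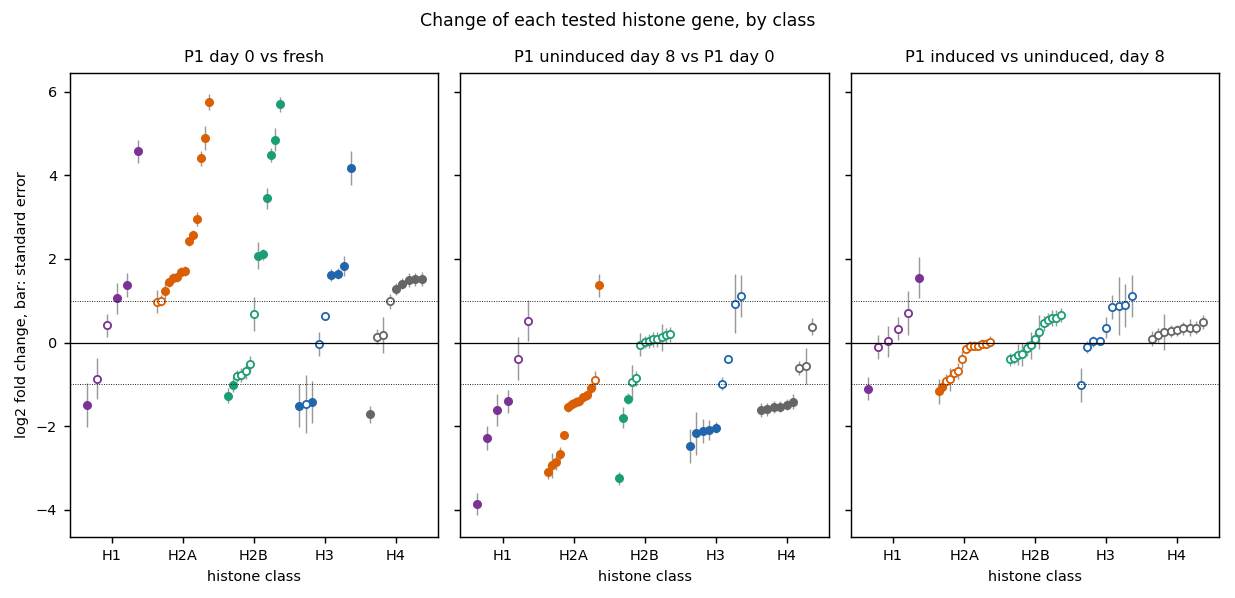
Log2 difference ± SE of each tested canonical histone gene by class, for P1 day 0 against fresh, P1 uninduced against P1 day 0 and P1 induced against uninduced. Filled points were called, and dotted lines mark a 2-fold change. The first panel has 30 genes called up, the middle panel 30 called down, and the last 1 up and 3 down.

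Over the same 8 days, 24 of 25 S-phase genes fell and none rose (median -1.83), from Tk1 at -3.31 and Rrm2 at -3.20 to Lig1 at -1.19 and Rfc3 at -0.77. Of 23 histone supply genes, 11 fell and none rose, with Asf1b at -2.97 and Ccne1, a cyclin of S-phase entry, at -2.46, and with Lsm10 at 0.19 and Asf1a at 0.38, not called. Of the 12 histone genes outside the members 3 fell: Cenpa was at -2.91 and H2afx at -1.53, while H3f3a at -0.04 and H2afy2 at 0.06 were not called. Summed macrophage markers were between 4.09 and 4.51 after 8 days, above the day-0 range given above, although Clec4f, Adgre1 and Cd5l were above background on no day-0 or uninduced P1 array. Among these markers only Csf1r was called, at 2.66, while Cd68, at 0.84, and Marco, at 0.08, were not. The part of these markers in the histone differences was not tested.

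Against fresh hepatocytes, P1 uninduced cells had a different mix. Of 51 members 11 were called up, where 24.3% of all genes were, and 7 down, where 24.8% were, with a median of -0.07. Neither count of members stood above its background. Hist3h2ba (at least 6.28-fold), Hist1h2bq (at least 5.67-fold) and Hist1h2ai (at least 2.01-fold) were among those up, with Hist1h2ao at 1.95, Hist1h2ab at 1.31, Hist2h2bb at 1.24 and Hist3h2a at 1.16. The other probe of Hist3h2ba, at the stem-loop, moved less, with means of -2.12 in fresh and -1.56 in uninduced cells. Hist1h1t, Hist1h4h, Hist1h4c, Hist1h2be and Hist1h1e fell by 1.88, 1.34, 1.28, 1.09 and 1.0. Under normexp background correction, 5 members were called up and 5 down in place of 11 and 7, so that neither direction prevailed; Hist1h2ai was then at 0.50 and Hist2h2bb at 0.34.

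Hepatic induction at P1 was tested against 8 days without inducers. Oncostatin M is a cytokine and dexamethasone a glucocorticoid, both used to mature hepatocytes in culture. Few members moved: 1 of 51 rose, where 9.68% of all genes did, and 3 fell, where 9.02% did, and the median was 0.03. Without the 2-fold line, 7 were higher and 8 lower at an adjusted p under 0.05.

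The gene that rose was Hist1h1c, the linker gene with known polyadenylated mRNA, at 4.71, 4.86 and 4.64 in induced against 2.94, 3.52 and 3.1 in uninduced cells. The groups did not overlap, and the difference was 1.55 ± 0.49, or 2.93-fold, with adjusted p = 0.025. With 1 array left out the difference ran from 1.43 to 1.72. The adjusted p was over 0.05 when induced replicate 1, 2 or 3 or uninduced replicate 1 or 3 was left out, and under it only without uninduced replicate 2.

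The genes that fell further were Hist1h2ao (-1.17 ± 0.29, adjusted p = 0.0083), Hist1h1b (-1.10 ± 0.27, adjusted p = 0.0066) and Hist1h2ab (-1.06 ± 0.17, adjusted p = 0.00056). In induced cells Hist1h1b stood at -2.58, -1.64 and -2.78 and Hist1h2ab at 0.55, 1.25 and 0.58. Induced replicate 2 was highest for both genes but still below every uninduced array for both. All 3 calls were lost without induced replicate 1, where the differences were -0.93, -0.98 and -0.94 in that order, and those of Hist1h1b and Hist1h2ab also without induced replicate 3.

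Several members were near the line without being called. Hist2h3c1 was at 0.71, 0.66 and 0.92 in induced against -0.66, -0.28 and -0.10 in uninduced cells, with no overlap, and its difference of 1.11 ± 0.50 had adjusted p = 0.099. Hist1h2bm, Hist1h2bc and Hist1h2bb were 0.66, 0.59 and 0.59 higher with an adjusted p under 0.05. All 9 H4 genes were between 0.09 and 0.50 higher, none called. The S-phase list had 9 of 25 genes down and 2 up, and the histone supply list 3 of 23 down.

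Against fresh hepatocytes, induced P1 cells had 8 of 51 members up (20.3% of all genes were) and 5 down (18.8% were), with a median of 0.10. Hist3h2ba (at least 5.72-fold), Hist1h2bq (at least 4.67-fold) and Hist1h2ai (at least 1.25-fold) were among those higher, with Hist3h2a at 1.02. The stem-loop probe of Hist3h2ba again moved less, with means of -2.12 in fresh and -1.45 in induced cells. Hist1h4c, Hist1h2be and Hist1h1a fell by 1.18, 1.01 and 1.01. Hist1h1c was 1.21 higher (adjusted p = 0.046), a call that rested on fresh replicate 1: without it the difference was 0.45. In both comparisons with fresh cells Hist1h3a, named after its values were seen, was among the lowest; its fresh levels were -2.68, -2.23 and -2.06, and it was above background on no uninduced or induced P1 array.

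The late-passage groups allowed the 8-day change to be measured again on arrays that share none with P1. Of 52 tested members 27 fell, where 6.37% of all genes did, and 3 rose, where 8.19% did, with a median of -1.15. For all 27 every uninduced array lay below every day-0 array. Those down were 2 of 6 H1, 13 of 15 H2A, 2 of 13 H2B, 4 of 9 H3 and 6 of 9 H4 genes.

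Hist1h1b fell 7.95-fold (-2.99 ± 0.27, adjusted p = 9.9e-05), from 3.03, 2.98 and 2.94 to -0.12, 0.26 and -0.17. Hist2h2bb fell by 2.90, Hist1h3g by 2.48, Hist1h2ab by 2.32, Hist1h2ao by 2.04, Hist1h3c by 1.88, Hist1h2ah by 1.57, Hist3h2a by 1.48, Hist4h4 by 1.30 and Hist1h4d by 1.19. Hist1h2bc, Hist1h2bb and Hist1h2ba, at -0.57, -0.61 and -0.58, were under 2-fold and so not called, but every uninduced array lay below every day-0 array and the adjusted p was 0.0030, 0.0033 and 0.0041. At P1 the same genes were at 0.17, 0.08 and 0.08 with arrays that overlapped.

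The 3 that rose were Hist1h2ac, Hist2h3c2 and Hist2h3c1. Hist1h2ac, which can make polyadenylated mRNA, went from -4.21, -3.93 and -4.37 to -2.19, -2.40 and -3.36 (1.52 ± 0.44, adjusted p = 0.023), with uninduced replicate 3 nearest to day 0. Hist2h3c2 went from -1.09, -1.28 and -1.70 to -0.10, -0.12 and -0.46, and Hist2h3c1 from -1.70, -1.77 and -2.36 to -0.92, -0.83 and -1.01. None of the 3 was called without late day-0 replicate 3, and 1 was without late uninduced replicate 2.

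Of the 30 members that fell at P1 and the 27 that fell in late cells, 25 were shared, 83.3% of the P1 and 92.6% of the late genes. Hist1h2ag fell at P1 but was not tested in late cells, where a spot was flagged on 1 array. Over the 50 members tested in both, Pearson's r of the differences was 0.918 and Spearman's rho 0.898, and 42 had the same sign. The points share probes with common sequence and the same replicate numbering, and the value is a description.

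**Figure D4:**
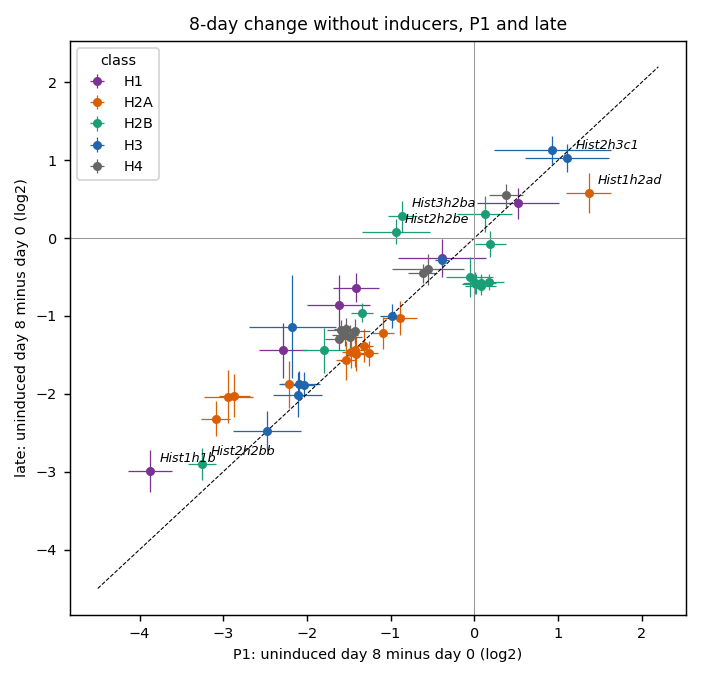
Log2 difference ± SE between uninduced day 8 and day 0 for each canonical histone gene tested in both fits, at P1 (horizontal axis) and in late passage (vertical axis), with the line of equality dashed. Hist1h1b, at -3.87 and -2.99, is the farthest down in both, and 42 of 50 genes have the same sign.

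The difference between the late and the P1 8-day changes was tested directly in all 21 arrays. Of 52 members 1 was called up, where 1.74% of all genes were, and none down, where 1.11% were; at an unadjusted p under 0.05, 5 were higher and 5 lower. The gene called was Hist3h2ba (1.14 ± 0.28, adjusted p = 0.029). It went from 0.49, 0.10 and 0.08 to -0.61, -0.50 and -0.81 at P1, and from 0.43, 0.63 and 1.12 to 1.23, 0.84 and 0.95 in late cells. The P1 arrays separated downwards, while the late ones overlapped. The call was lost without any one of 7 of the arrays, at between 0.99 and 1.17.

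At day 0, late and P1 cells had none of 52 members called in either direction, where 4.33% of all genes were up and 9.11% down in late cells; at an unadjusted p under 0.05 limma gave 4 higher and 1 lower. The median difference was 0.08. Hist1h2ab was at 5.19, 5.12 and 5.07 in late and at 5.07, 4.90 and 4.86 in P1 cells, barely apart. The largest differences were -0.72 for Hist2h3c2, -0.68 for Hist1h4h (adjusted p = 0.0093, under 2-fold) and 0.50 for Hist1h3g and Hist3h2ba. Late and P1 arrays differed in scanner and software version, which cannot be told apart from passage. Summed stellate or fibroblast markers were between -2.18 and -1.38 in late day-0 cells, far below P1, with Col1a1, Col3a1, Dcn, Lrat and Pdgfrb above background on none of these arrays. Their part in the histone levels was not tested.

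Late induction called no member in either direction, where 2.94% of all genes rose and 3.06% fell; limma gave 5 higher and 4 lower at an unadjusted p under 0.05. The median was 0.15. With the replicate number as a block, which treats same-numbered arrays as pairs, none was called either. Hist1h4m was 0.91 higher (adjusted p = 0.018) and Hist2h3c2 0.62 lower (adjusted p = 0.043), both under 2-fold, and Hist1h3g was at -0.87 (adjusted p = 0.052). Hist1h1c was at 3.88, 3.81 and 4.14 in induced and 3.38, 3.21 and 3.65 in uninduced cells, higher on every array but not called. Hist1h3a, named after its values were seen, had the highest difference, at 1.36 ± 0.66 (adjusted p = 0.19). It stood at -3.04, -2.69 and -4.88 in induced and -4.43, -4.10 and -6.17 in uninduced cells, above background on 2 arrays of each group. The groups overlapped, but each induced array lay above the uninduced array of the same number.

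Induced replicate 3, of passage 11 and alone on its slide, had the lowest value of its group in 40 of 51 members; the passage 11 arrays were also lowest in 43 of 50 members uninduced and 37 of 51 at day 0. Without it 5 members were called up, among them Hist1h1a (1.30), Hist1h4m (1.15) and Hist1h1d (1.14). The induction effect in late cells minus that at P1 was called for none of 52 members (4.73% of all genes were up and 5.21% down), with 4 higher and 2 lower at an unadjusted p under 0.05. The values were -1.50 for Hist2h3c2, -1.35 for Hist2h3c1, -1.02 for Hist1h1c, 1.19 for Hist1h2ao and 1.09 for Hist1h1b. Without late induced replicate 3, 5 were called up, and without P1 induced replicate 2, 2 were.

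For a few genes, an upstream and a downstream probe gave different courses. The downstream probes of Hist3h2a and Hist1h1d list no RefSeq accession, so whether they read mRNA of these genes is uncertain. Hist3h2a rose and fell on its upstream probe, with group means of 3.18 in fresh, 5.60 at P1 day 0 and 4.34 uninduced. On a probe 567 bases downstream the means were 0.65, 2.93 and 3.78, so this signal was higher, not lower, after 8 days; the individual arrays were 2.85, 2.94 and 3.01 at day 0 and 3.67, 3.77 and 3.91 uninduced. In late cells its means were likewise 2.89 and 3.62.

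Hist1h1d showed the same contrast. Its upstream probe gave means of -0.45 in fresh, 0.61 at P1 day 0 and -1.01 uninduced, and a probe 2335 bases downstream gave -4.58, -5.04 and -3.46. The downstream probe was above background on 1 of the fresh, none of the P1 day-0 and 2 of the uninduced arrays, so it bounds little. For Hist1h1c both probes moved together on P1 induction: the upstream probe at the stem-loop was 1.29 higher and the one 688 bases downstream, whose values are used above, 1.55 higher.

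For Hist3h2ba the rise from fresh to P1 day 0 was 1.28 at the stem-loop probe. On the probe 160 bases downstream, which was above background on no fresh array, only the bound given above, at least 11.4-fold, can be stated. The second probes of Hist1h2ai, Hist2h2ac and Hist2h2bb were above background on no fresh or P1 day-0 array and gave no measurement there. By kind of probe, 5 of 8 stem-loop probes rose at P1 day 0 (median 3.82), 10 of 16 probes with several accessions (median 1.47) and 15 of 27 others (median 1.23). Over 8 days at P1, 7 of 8, 11 of 16 and 12 of 27 fell, in that order.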

How the data were processed

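Data were 21 1-colour Agilent scanner files and 2 tables by the authors. The deposited processed signal is an intensity, background-subtracted and not yet scaled to a common level. Per the file headers it came from Agilent software (Feature Extraction 11.5.1.1 for fresh and P1 arrays, 10.7.3.1 for late arrays, on another scanner). The authors' deposited tables hold log2 values: one equalled the levels used here up to a constant (56605 probes), the other matched once centred by probe (40760 probes). How their probes were chosen is not known here. Probe coordinates are mm9, per the file headers.

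Control spots and outlier-flagged spots were dropped, spots of a probe averaged, and the 75th percentile of log2 signal subtracted. That percentile lay at a signal between 291 and 332 for fresh cells, between 466 and 789 for P1 and between 881 and 1241 for late cells; 46.1% to 60.5% of probes were well above background, and the number of arrays limits the precision. The limma model (version 3.58.1, lmFit and eBayes, in R 4.3.3) had a mean per group and was fitted on the 12 fresh and P1 arrays, the 9 late arrays or all 21, with Benjamini-Hochberg adjustment of p over every gene tested; a flagged spot removed 60, 24 and 84 genes. The fits were tested on simulated data. Alternatives were quantile and normexp (offset 50) scaling, the filter, probe choice, slide, replicate block and leaving out arrays.

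Replicate numbers come from the titles. Same-numbered arrays deviated together from their group means between P1 day 0 and uninduced (r = 0.308, 0.234 and 0.475). The same held between P1 uninduced and induced (0.328, 0.107 and 0.332) and among late groups (0.273 to 0.613). Between P1 day 0 and induced r was 0.164, -0.0985 and 0.303, and fresh arrays did not deviate with P1 arrays (-0.07 to 0.04). Most same-numbered CLiP arrays of one passage stage also shared a slide, and arrays of different numbers were not compared. Whether the numbers pair these samples was therefore not tested. The labels do not say whether replicates were separate animals or cultures, so the p-values cover only the spread between samples as deposited, which may be technical.

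Named members were the 3 brightest of each class, the 3 highest and lowest of each comparison among members well above background on all arrays of both groups, those known as polyadenylated or germline, and those whose probes disagreed. Members and lists were chosen with earlier results of these data known. One result is not reported here. Python 3.11.15 with matplotlib 3.10.9, numpy 2.4.6 and pandas 2.3.3 was used, and the R packages statmod 1.5.0 and data.table (version 1.17.8).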

Additional observations from a re-analysis of the deposited data

Results flagged for a closer look

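Hist3h2ba was picked out because its uninduced 8-day change differed between late and P1 cells by a direct test of the difference (1.14, limma adjusted p = 0.029, all 21 arrays). It was -0.86 at P1 and 0.28 in late cells. The stem-loop probe of the same gene gave -0.71 and 0.12.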

How the results depend on the processing

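No value of a called named gene changed sign under the alternatives run. These used the brightest probe of a gene or the mean of its probes, and never its other probe alone. On the other probe the 8-day difference of Hist3h2a was 0.85 at P1 and 0.73 in late cells, opposite to the calls. That of Hist1h1d at P1, near background, was 1.58, also opposite. Without the 2-fold line, the counts that moved by over 1.5 times were 10 down for P1 day 0 against fresh, 7 up and 8 down for P1 induction, 14 down for P1 uninduced against fresh, 14 up and 10 down for P1 induced against fresh, 1 up and 1 down for late induction, and 1 down for late against P1 day 0. Normexp gave 0 up for the P1 8-day change, 2 up for P1 induction, 5 up and 5 down for P1 uninduced against fresh, 4 up and 2 down for P1 induced against fresh, and 1 up for the late 8-day change. For P1 day 0 against fresh, the median of all genes was -0.01 in the main fit, -0.17 under normexp and 0.13 under quantile scaling. The members' median was 1.41, 0.90 and 1.61 in that order. A fit over all probes gave 2 up for P1 induction and 5 up for the late 8-day change, and the mean of all probes 0 up for the difference of the 8-day changes. Within slide 4 the P1 8-day change had 3 up and 29 down and P1 induction 2 up; within slide 5 these were 1 up and 27 down, and 2 up and 0 down, so P1 induction there had more up than down, the opposite of 1 up and 3 down. With slide as a block, late induction and the difference of induction effects each had 5 up, as late induction had within slide 6; as a random block, P1 induced against fresh had 3 down. With the replicate number as a block, P1 induced against fresh had 6 down in place of 5, and the other counts were as given.

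Leaving out 1 array at a time gave, up and down: P1 day 0 against fresh 29 to 33 and 3 to 8 (3 without fresh replicate 2 or 3 or P1 day-0 replicate 1 or 2), the P1 8-day change 1 to 1 and 30 to 32, P1 induction 0 to 1 and 0 to 4, P1 uninduced against fresh 11 to 11 and 6 to 10, P1 induced against fresh 6 to 11 and 4 to 6, the late 8-day change 0 to 3 and 27 to 29, late induction 0 to 5 and 0 to 1, late against P1 day 0 0 to 0 in both, and the differences of 8-day changes 0 to 1 and 0 to 0 and of induction effects 0 to 5 and 0 to 0. Of 5971 values of named genes under alternatives, 5814 kept their call or stayed uncalled, 97 lost the call and 60 gained one. Direction was compared only where a gene was called in the main fit or in the alternative.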
